A study of Mus musculus with 8 samples.

Results

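The genes described here are 44 genes of DNA repair, from the Fanconi anaemia pathway, homologous recombination, mismatch repair, base excision repair, end joining and the damage checkpoint. They were taken by gene symbol from a list whose rule uses no measured value, although earlier results of these data were known when it was drawn up. All 44 were found among the 25239 gene symbols of the count table, and all 44 were among the 12837 genes with enough counts to be tested. The data are read counts of polyadenylated RNA from primary cells of the mouse calvaria, the bony roof of the skull, which the labels call osteoblasts. The 4 libraries of the first group are labelled KO and come from mice named OSX-SphK2 knockout, where OSX is the usual abbreviation of Osterix, a transcription factor of bone-forming cells. The 4 libraries of the second group come from littermates labelled control and WT. Both groups carry library numbers 1 to 4. Sphk2 encodes sphingosine kinase 2, which phosphorylates the lipid sphingosine. Age, strain, the alleles behind that name, whether controls carry any of them and the number of animals behind a library are not given in the sources used here, so p-values here rest on library-to-library spread alone, which may in part be technical.

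Cells repair DNA by routes that depend on the lesion. In the Fanconi pathway a core complex, brought to DNA crosslinks by FANCM, attaches ubiquitin to the FANCI-FANCD2 pair, and the exposed break is then handed to BRCA1 and BRCA2 for homologous recombination with the sister chromatid. Because recombination needs a sister chromatid, many transcripts of this route are known to peak in S and G2 phase, whereas genes of end joining and base excision repair are generally expressed throughout the cell cycle.

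The targeted gene did not separate the groups. Sphk2 was at 69.7, 72.3, 72.1 and 131 CPM (read counts scaled to the size of the library) in the libraries labelled knockout, against 75.8, 64.2, 82.5 and 134 CPM in the control libraries. The log2 fold change of knockout-labelled over control libraries was -0.05 with a standard error (SE) of 0.30 (adjusted p = 0.9999, edgeR's quasi-likelihood test with Benjamini-Hochberg adjustment over all genes tested), and p was 0.8 in an exact permutation test (two-sided). The labels do not say which exons were deleted, so whether counts over the whole gene can show it is unknown. Exons of Sphk2 also overlap those of Dbp and Rpl18 on the opposite strand over 21.9% of their length. Whether the counting used strand is not given, so reads of these genes cannot be told apart there. Every direction below is therefore between libraries labelled knockout and control libraries.

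Total counts were 14347495 to 17928713 in the libraries labelled knockout and 14571389 to 19065421 in the control libraries, and 42 of the 44 genes had at least 20 counts in every library. Rad51b, at 10 counts in its lowest library, and Rad51c, at 15, were the thinnest. The libraries numbered 4 stood apart in both groups along the first principal component of all genes tested, which held 73.7% of the variance. Summed levels of 10 osteoclast markers were 189, 176, 184 and 6748 CPM in libraries 1 to 4 labelled knockout, against 185, 278, 172 and 10222 CPM in control libraries 1 to 4. The 14 osteoblast markers, all in the table, summed to 4165 to 15754 CPM in libraries labelled knockout and 6439 to 16929 CPM in control libraries. The 15 macrophage markers, also all in the table, summed to 32636 to 53161 CPM in libraries labelled knockout and 32604 to 42966 CPM in control libraries. Fewer cells of a kind and less RNA per cell cannot be told apart in such bulk RNA. Summed neutrophil markers reached at most 3.64 CPM in libraries labelled knockout and 3.23 CPM in control libraries, and the T cell genes Cd3d and Cd3g had no counts in any library. The 9 lymphocyte markers together summed to 8.69, 7.55, 4.72 and 36 CPM in libraries labelled knockout, against 1.43, 2.64, 0.757 and 26.8 CPM in control libraries, and both of the 2 with enough counts to be tested were higher in all 4 pairs. Without libraries 4, Cd4 was called higher (log2 fold change 2.25, adjusted p = 0.0132 with edgeR), as were Mrc1 of the macrophage markers and Atp6v0d2 of the osteoclast markers. Cd14, Itgam, Msr1, Dcstamp and Itgb3 of those lists were called lower. In that fit 7.78% of all genes were called higher and 6.29% lower, and none of these markers was called with all 8 libraries in edgeR. The part of these marker differences in the results below was not tested.

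As a group, the repair genes lay slightly higher in libraries labelled knockout, and in the fit of genotype over all 8 libraries no single gene passed the threshold. The log2 fold change was positive for 38 of the 44 genes, with a median of 0.26 (1.2-fold) and a range of -0.18 to 1.46, whereas 46.7% of all genes tested were positive with a median of -0.02. With edgeR, 0 of 44 were called higher or lower at an adjusted p under 0.05, and the background was the same, with 0% of all genes called in either direction. At an unadjusted p under 0.05, 13 of the 44 were higher and none lower, against 3.19% of all genes higher and 1.72% lower. Limma-voom called 0 of 44 as well, with 15 higher and none lower at an unadjusted p under 0.05, against 3.4% of all genes higher and 1.74% lower at that p, and DESeq2 called 4 higher and none lower. The 4 were Rad51ap1 (adjusted p = 0.000193), Fancd2 (0.00127), Fanci (0.00596) and Brip1 (0.0212), against 0.931% of all genes called higher and 0.364% called lower by DESeq2.

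Libraries of the same number deviated together in both groups. With the library number as a replicate block, edgeR called 3 of the 44 higher and none lower, against 1.31% of all genes called higher and 1.18% called lower. Fancd2 rose by 1.53 on the log2 scale (SE 0.25, adjusted p = 0.0427), Ankle1 by 1.63 (SE 0.28, adjusted p = 0.0433) and Rad51ap1 by 1.28 (SE 0.23, adjusted p = 0.0479). All 3 calls lie just under the threshold. Without the block, leaving out control library 4 alone gave 3 calls (Fancd2, Rad51ap1 and Ankle1, adjusted p = 0.0499, 0.0498 and 0.0391), against 0.192% of all genes called higher and 0.1% lower. Leaving out library 4 labelled knockout alone gave 1 (Brip1, adjusted p = 0.0427), against 0.131% of all genes higher and 0.0539% lower, and leaving out any other single library gave 0. With the block, none of the 44 was called when libraries 1, 2 or 3 of both groups were left out of the fit, and 0% of all genes were called either. When libraries 4 of both groups were left out instead and no block was used, 19 of the 44 were called higher and none lower, against 7.78% of all genes higher and 6.29% lower. With the block in those 6 libraries, 23 of the 44 were called higher and none lower, against 12.3% of all genes higher and 11.9% lower.

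For 7 of the 44 genes all libraries labelled knockout lay above all control libraries, and for none did all lie below, against 2.32% of all genes above and 1.27% below. The 7 were Fancd2, Fanci, Brca1, Rad51ap1, Blm, Polq and Ankle1. For 23 of the 44 the library labelled knockout was above the control library of the same number in all 4 pairs, and for Xrcc3 and Atr it was below in all 4, against 15.4% and 13.4% of all genes.

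**Figure D1:**
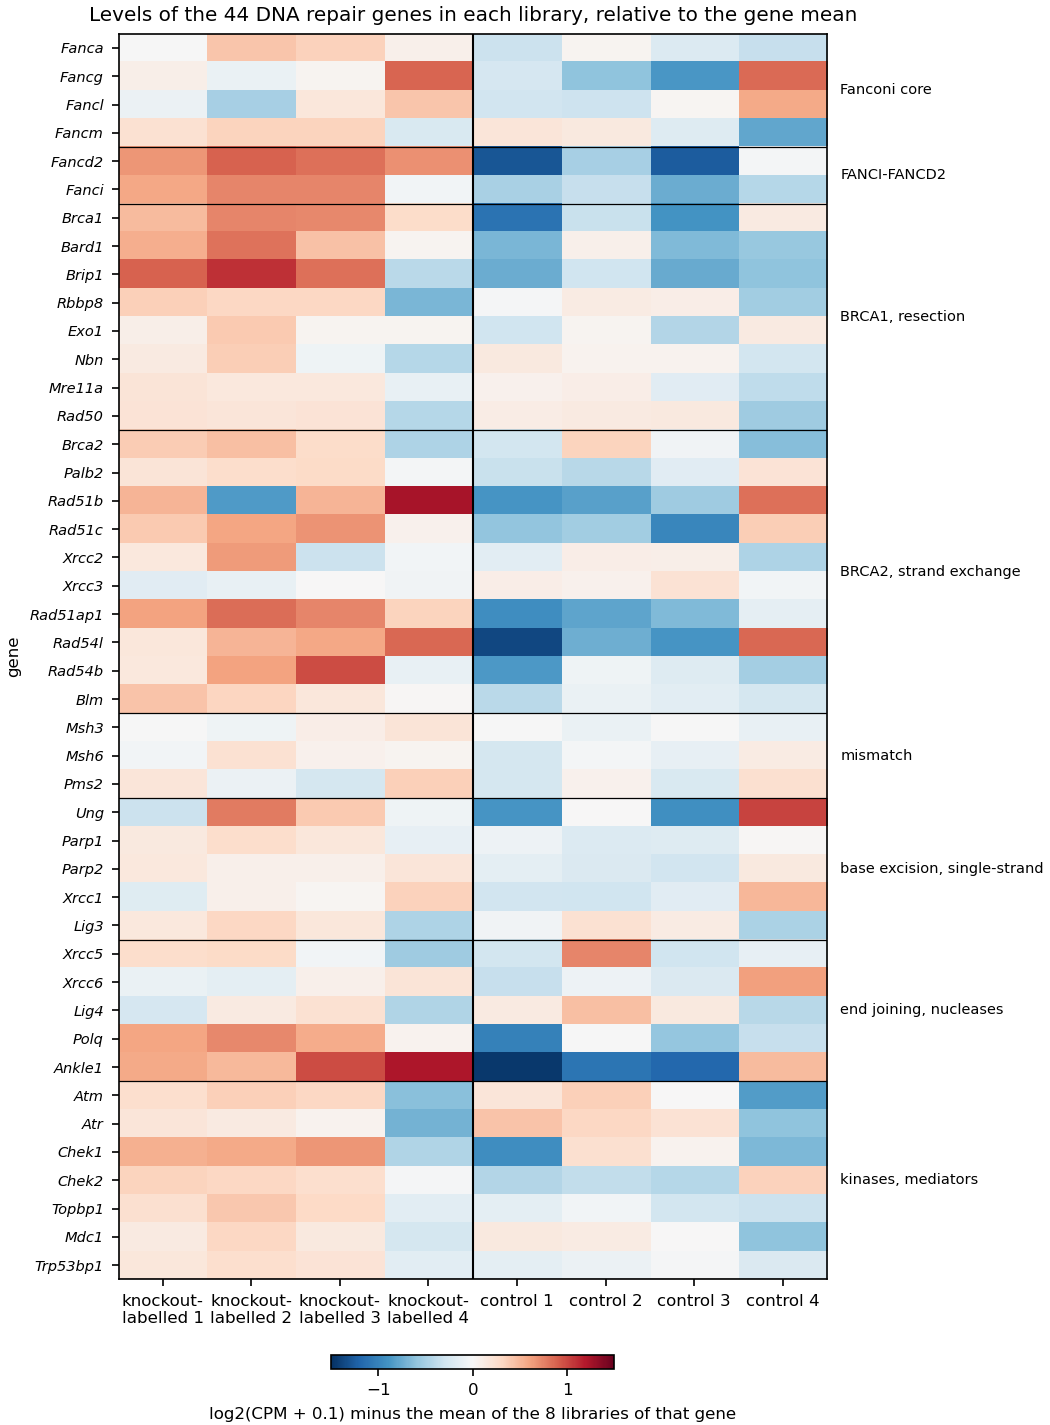
Level of each of the 44 repair genes (rows, grouped by role) in each of the 8 libraries (columns), as log2(CPM + 0.1) minus the mean of the gene over all libraries, with red above and blue below that mean. Fancd2, Rad51ap1 and Ankle1 are above or near their mean in every library labelled knockout and low in control libraries 1 to 3, and libraries 4 of both groups look alike for genes such as Fancg, Rad50 and Atm.

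Promoters were searched for letters known from cell-cycle genes, and the shares are a description of the sequences with no test. E2F factors, which switch on S phase genes, bind a short GC-rich element, and its 4 spellings TTTCCCGC, TTTGGCGC, TTTCGCGC and TTTGCCGC were searched on both strands in the 250 bases before the RefSeq start (GRCm38.p6). Of the 37 repair genes with a promoter in the RefSeq table, 8 (21.6%) held at least 1 spelling, against 402 of 10207 tested genes (3.94%) and 583 of all 27025 genes with a promoter (2.16%). The share was 3 of 14 (21.4%) in the repair genes known as cell-cycle regulated transcripts and 5 of 23 (21.7%) in the other repair genes. They are Bard1, Topbp1, Chek2, Brca2, Msh3, Fancg, Mdc1 and Xrcc6, and the 2 matches of Msh3 overlap. TTTCCCGC was the spelling in 6 of them, and TTTGGCGC or TTTCGCGC in Topbp1 and Msh3. CCAAT, the letters bound by NF-Y, was in 17 of 37 (45.9%) against 40.5% of tested genes, and TTTGAA, the core of the cell-cycle homology element, was in 3 of 37 (8.11%) against 12.8%. A match is a description of the letters and not evidence of binding. The 4 promoters below belong to the E2F-spelling holders with the smallest unadjusted p between the groups. Each is 70 bases, 5′ to 3′ on the strand of the gene. Letters that match an E2F spelling are in capitals, and read GCGGGAAA or GCGCGAAA where the match is on the opposite strand. Matches to CCAAT and TTTGAA are not marked.
Bard1 (GRCm38.p6, chr1:71103147-71103216, minus strand): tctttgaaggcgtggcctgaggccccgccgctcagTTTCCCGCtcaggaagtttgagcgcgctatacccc
Topbp1 (GRCm38.p6, chr9:103305145-103305214, plus strand): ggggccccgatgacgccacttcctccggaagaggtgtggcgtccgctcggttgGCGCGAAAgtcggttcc
Chek2 (GRCm38.p6, chr5:110839800-110839869, plus strand): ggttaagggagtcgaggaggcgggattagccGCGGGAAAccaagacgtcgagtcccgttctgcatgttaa
Brca2 (GRCm38.p6, chr5:150522422-150522491, plus strand): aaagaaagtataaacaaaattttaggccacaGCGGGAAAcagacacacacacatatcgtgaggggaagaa
The match lies 209 to 202 bases before the start in Bard1, 129 to 122 in Topbp1, 152 to 145 in Chek2 and 168 to 161 in Brca2. Rad51ap1, Brip1, Brca1, Blm, Polq and Ankle1 held none of the 4 spellings in this window, which says only that these letters are not there.

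Among the Fanconi genes, both members of the FANCI-FANCD2 pair had every library labelled knockout above every control library. For none of the 4 core and anchor genes among the 44 was this so, against 2.32% of all genes above and 1.27% below. Of 13 other Fanconi genes it was so for 1, the core subunit Fancb. Fancd2, whose product is the ubiquitinated clamp that marks crosslinks, was at 12.96, 15.1, 14.6 and 13.1 CPM in libraries labelled knockout, against 3.28, 5.73, 3.38 and 7.97 CPM in control libraries. The groups did not overlap, and control library 4 came closest. Its log2 fold change was 1.45 (SE 0.30, adjusted p = 0.47 with edgeR), a 2.74-fold higher level, and the exact permutation test gave p = 0.0286, the smallest that 4 against 4 libraries allow. Any gene whose groups do not overlap gets this p, so here and below it only restates the missing overlap. The test exchanges libraries across numbers, and exchanging labels only within the 4 numbered pairs could not give a p below 0.125. Fanci, its partner, was at 7.44, 8.26, 8.28 and 4.81 CPM in libraries labelled knockout, against 3.49, 3.88, 2.91 and 3.64 CPM in control libraries, again without overlap. The log2 fold change of Fanci was 1.05 (SE 0.23, adjusted p = 0.47 with edgeR) and its exact permutation p was 0.0286. Exons of Fanci overlap those of Polg on the opposite strand over 16% of their length, and whether the counting used strand is not given, so reads of the 2 genes cannot be told apart there.

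Core and anchor genes had log2 fold changes of -0.01 to 0.42. Fanca, a scaffold of the core complex, was at 8.002, 10.8, 10.2 and 8.52 CPM in libraries labelled knockout, against 6.40, 8.32, 6.99 and 6.29 CPM in control libraries. Its groups overlapped slightly, with control library 2 above the lowest library labelled knockout, and its log2 fold change was 0.42 (SE 0.18, adjusted p = 0.99 with edgeR). Fancg, another core subunit, was at 16.4, 14.4, 15.8 and 28.3 CPM in libraries labelled knockout, against 12.9, 10.1, 8.39 and 27.8 CPM in control libraries. Both libraries numbered 4 stood highest, and the log2 fold change was 0.34 (SE 0.41) in all libraries. Fancm, the translocase that anchors the complex to DNA, was at 13.5, 14.6, 14.6 and 9.83 CPM in libraries labelled knockout, against 13.1, 12.8, 10.1 and 6.71 CPM in control libraries, and the groups overlapped. Fancl, the ubiquitin ligase subunit, averaged 6.59 ± 1.74 CPM in libraries labelled knockout and 6.64 ± 2.06 CPM in control libraries (SD, n = 4 each), a log2 fold change of -0.01 (SE 0.29).

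**Figure D2:**
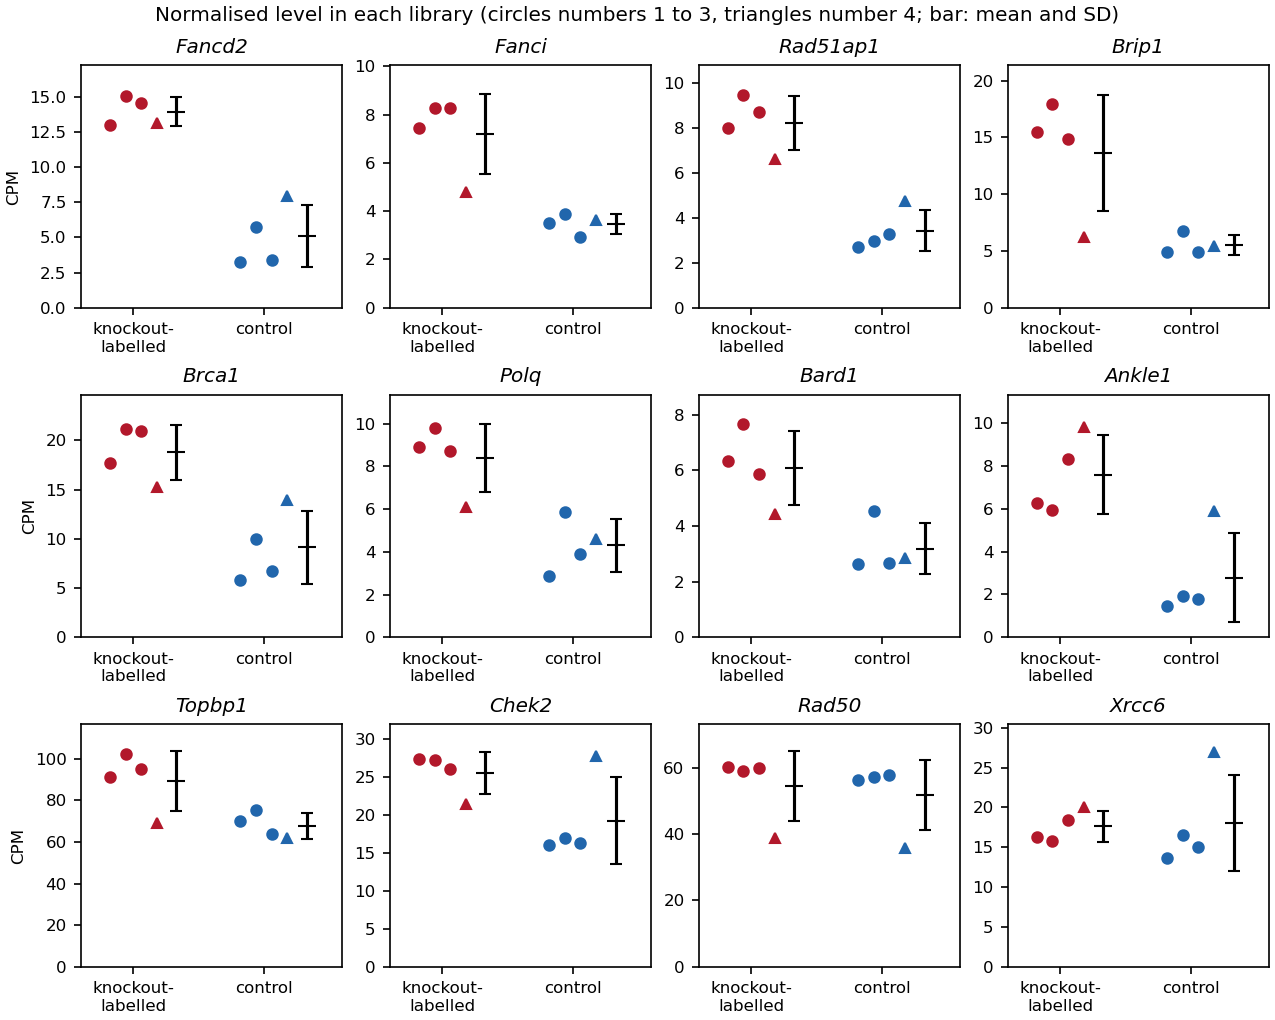
CPM in each library for members of several roles, with libraries labelled knockout left and control libraries right, circles for numbers 1 to 3, triangles for number 4, and bars for the mean and SD of 4 libraries. Fancd2, Fanci, Rad51ap1, Brca1, Polq and Ankle1 show no overlap between groups, whereas in Brip1, Chek2, Rad50 and Xrcc6 a library numbered 4 lies away from the others of its group.

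Within the BRCA1 group the log2 fold change was above 0 for all 8 genes (median 0.23), and the 3 with the smallest unadjusted p were Brip1, Brca1 and Bard1. Brca1, the ubiquitin ligase that commits breaks to recombination, was at 17.7, 21.1, 21 and 15.3 CPM in libraries labelled knockout, against 5.82, 10.01, 6.76 and 13.9 CPM in control libraries. The groups did not overlap, although libraries 4 differed by only 0.14 on the log2 scale, and the log2 fold change was 1.04 (SE 0.29, adjusted p = 0.57 with edgeR). Bard1, the obligate partner of BRCA1, was at 6.33, 7.66, 5.89 and 4.44 CPM in libraries labelled knockout, against 2.65, 4.55, 2.68 and 2.87 CPM in control libraries. Control library 2 lay just above the lowest library labelled knockout, and the log2 fold change was 0.93 (SE 0.27, adjusted p = 0.61 with edgeR). Brip1, a helicase that binds BRCA1, was at 15.5, 17.9, 14.8 and 6.26 CPM in libraries labelled knockout, against 4.92, 6.75, 4.89 and 5.45 CPM in control libraries. In Brip1 libraries 1 to 3 differed by 1.39 to 1.63 on the log2 scale and libraries 4 by 0.20, and its log2 fold change over all was 1.31 (SE 0.32, adjusted p = 0.51 with edgeR).

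The nuclease complex that starts resection had log2 fold changes of 0.03 to 0.19. Mre11a, its nuclease, averaged 30.5 ± 2.87 CPM in libraries labelled knockout and 26.8 ± 4.09 CPM in control libraries (SD, n = 4 each). Rad50, its tether, averaged 54.5 ± 10.5 CPM in libraries labelled knockout and 51.8 ± 10.6 CPM in control libraries. Nbn, its link to ATM, averaged 21.4 ± 4.82 CPM in libraries labelled knockout and 20.98 ± 2.58 CPM in control libraries. Their log2 fold changes were 0.19 (SE 0.15), 0.07 (SE 0.21) and 0.03 (SE 0.19) in that order of genes. Rbbp8, the activator of the complex, had a log2 fold change of 0.19 (SE 0.26) and Exo1, the exonuclease that extends resection, 0.27 (SE 0.21). None of these 5 passed the threshold in the fit of all 8 libraries, and Rbbp8 did without libraries 4 (log2 fold change 0.26, adjusted p = 0.0405, edgeR).

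Among the genes of strand exchange, 9 of 10 lay above 0 on the log2 fold scale (median 0.61). Rad51ap1, a cofactor in the pairing of homologous DNA, was at 8.002, 9.46, 8.72 and 6.63 CPM in libraries labelled knockout, against 2.699, 2.98, 3.26 and 4.76 CPM in control libraries. Every library labelled knockout lay above every control library, and the log2 fold change was 1.26 (SE 0.24, adjusted p = 0.47 with edgeR; exact permutation p = 0.0286). Blm, the helicase that dissolves crossed strands, was at 14.8, 13.7, 12.4 and 11.1 CPM in libraries labelled knockout, against 8.31, 10.3, 9.84 and 9.16 CPM in control libraries. The groups were narrow and did not overlap, with a log2 fold change of 0.47 (SE 0.15, adjusted p = 0.73 with edgeR; exact permutation p = 0.0286). Rad54b, a DNA translocase of recombination, was at 3.97, 5.43, 7.06 and 3.28 CPM in libraries labelled knockout, against 1.91, 3.37, 3.09 and 2.45 CPM in control libraries. It overlapped only between the lowest library labelled knockout and control library 2, with a log2 fold change of 0.87 (SE 0.31, adjusted p = 0.84 with edgeR), and 35.9% of its exonic length is shared with other annotated genes, nearly all of it with a gene on the same strand.

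Rad54l, the close relative of Rad54b, was at 7.13, 9.02, 9.45 and 11.6 CPM in libraries labelled knockout, against 2.38, 3.77, 3.38 and 11.5 CPM in control libraries. Libraries 1 to 3 differed by 1.23 to 1.54 on the log2 scale and libraries 4 by 0.01. Brca2, a mediator of recombination, averaged 13.3 ± 3.40 CPM in libraries labelled knockout and 10.6 ± 3.01 CPM in control libraries, and Palb2, its link to BRCA1, averaged 8.81 ± 0.861 CPM in libraries labelled knockout and 6.94 ± 1.42 CPM in control libraries. The recombination genes Rad51b, Rad51c and Xrcc2 had log2 fold changes of 0.75 (SE 0.60), 0.83 (SE 0.35) and 0.25 (SE 0.27). Xrcc3, also of recombination, was lower in all 4 pairs, averaging 12.96 ± 0.673 CPM in libraries labelled knockout and 14.6 ± 1.1 CPM in control libraries, a log2 fold change of -0.17 (SE 0.12, adjusted p = 0.9999 with edgeR).

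**Figure D3:**
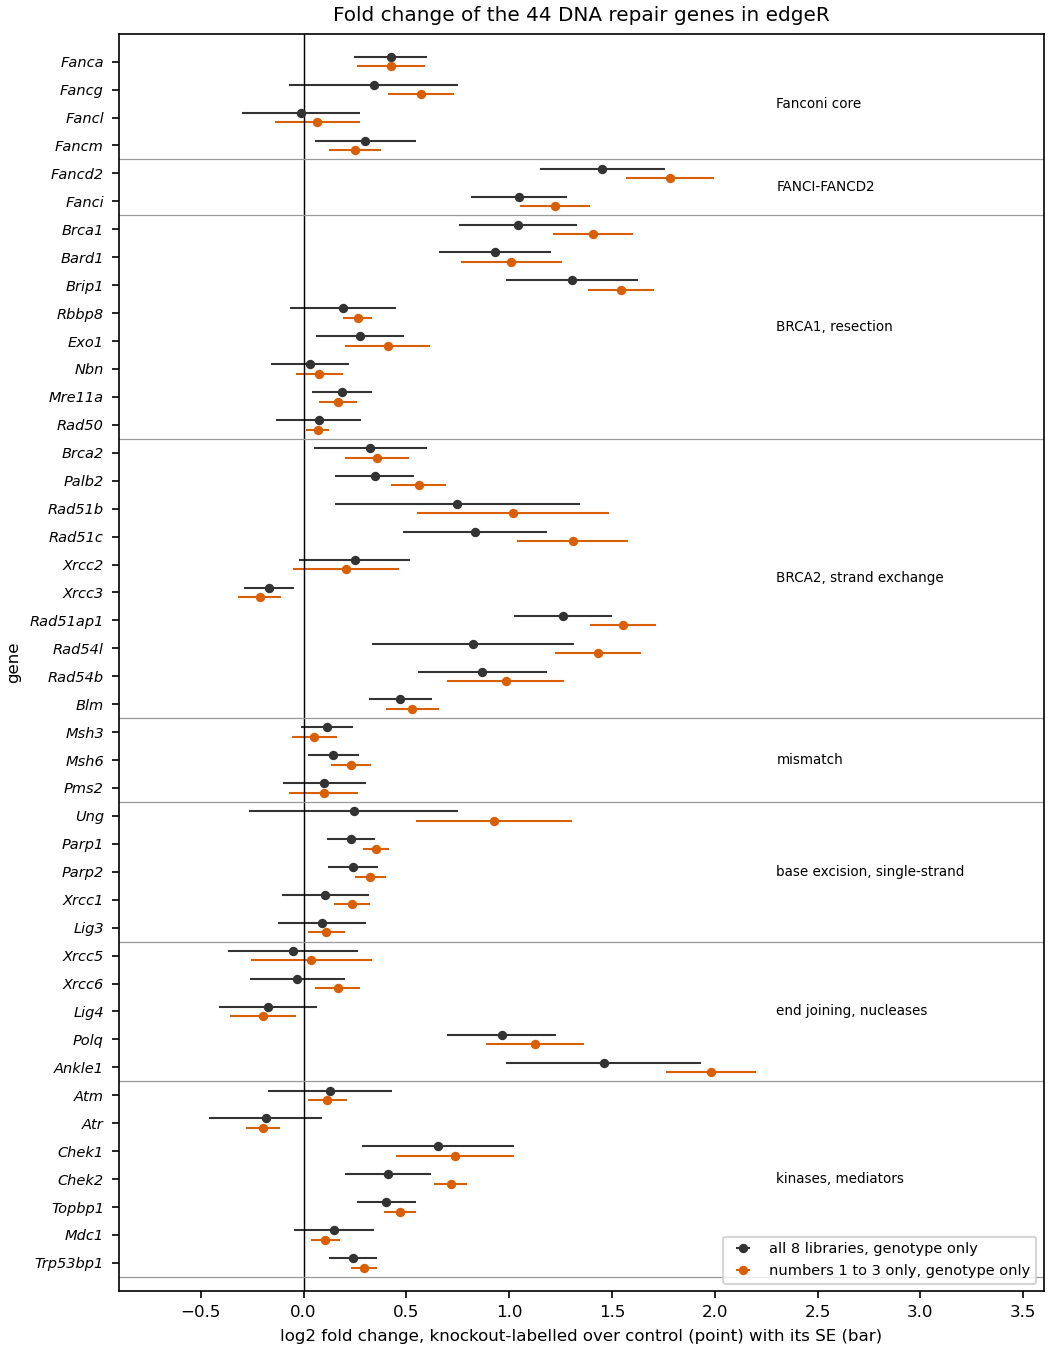
Log2 fold change of knockout-labelled over control libraries (point) with its SE (bar) for each of the 44 genes, from edgeR with genotype as the term, in all 8 libraries (black) and in the 6 libraries numbered 1 to 3 (orange). The orange points of Fancd2, Brip1, Rad54l, Ankle1 and Ung lie further right than the black ones, and those of the end joining genes Xrcc5, Xrcc6 and Lig4 lie between -0.20 and 0.17.

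Msh6 and Msh3, which take part in mismatch recognition, had log2 fold changes of 0.15 (SE 0.12) and 0.11 (SE 0.13). Msh6 was at 28.9, 34.9, 31.1 and 30.5 CPM in libraries labelled knockout, against 24.7, 29.1, 27.3 and 32.2 CPM in control libraries, and the groups overlapped. Msh3 was at 12.0, 11.5, 12.9 and 13.7 CPM in libraries labelled knockout, against 12.0, 11.2, 11.9 and 11.1 CPM in control libraries. Pms2, the nuclease of the mismatch pathway, was at 10.2, 8.42, 7.45 and 11.4 CPM in libraries labelled knockout, against 7.41, 9.33, 7.63 and 10.6 CPM in control libraries. The spread within each group of Pms2 exceeded the difference of their means.

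Parp1, which senses strand breaks and builds poly(ADP-ribose), had the highest level of the 44 per length, at 23.4 CPM per kilobase of exons averaged over all libraries. Rad51b had the lowest, at 0.333 CPM per kilobase. Parp1 was at 136, 148, 139 and 113 CPM in libraries labelled knockout, against 117, 107, 108 and 124.5 CPM in control libraries. Libraries 1 to 3 labelled knockout stood above those of the controls and library 4 stood below, and the log2 fold change was 0.23 (SE 0.12, adjusted p = 0.9999 with edgeR). Parp2, its relative, was at 39.6, 37.4, 37.5 and 40.2 CPM in libraries labelled knockout, against 32.1, 30.4, 29.1 and 39.4 CPM in control libraries, and only control library 4 reached the other group. Without libraries 4, Parp1 (log2 fold change 0.35, adjusted p = 0.00756) and Parp2 (0.32, adjusted p = 0.022) passed the threshold in edgeR.

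Ung, the glycosylase that removes uracil, was at 1.98, 4.40, 3.33 and 2.40 CPM in libraries labelled knockout, against 1.32, 2.53, 1.28 and 5.17 CPM in control libraries. Its pairs 1 to 3 were higher by 0.55 to 1.30 on the log2 scale, and pair 4 had a difference of -1.07. Xrcc1, the scaffold of single-strand break repair, and Lig3, the ligase it carries, had log2 fold changes of 0.11 (SE 0.21) and 0.09 (SE 0.21), and 25.1% of the exonic length of Lig3 is shared with Rffl on the opposite strand.

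Of the 5 end joining genes and nucleases, Polq and Ankle1 were higher in every library labelled knockout than in any control library. Over all genes tested, 2.32% lay above in this way and 1.27% below. The Ku subunits Xrcc5 and Xrcc6 and the ligase Lig4 had log2 fold changes of -0.17 to -0.03. Polq, the polymerase of theta-mediated end joining, was at 8.93, 9.78, 8.72 and 6.12 CPM in libraries labelled knockout, against 2.86, 5.85, 3.902 and 4.62 CPM in control libraries. The groups did not overlap, and the log2 fold change was 0.96 (SE 0.27, adjusted p = 0.57 with edgeR; exact permutation p = 0.0286). Ankle1, a nuclease that cuts branched DNA and chromatin bridges, was at 6.26, 5.92, 8.34 and 9.83 CPM in libraries labelled knockout, against 1.48, 1.91, 1.81 and 5.87 CPM in control libraries. Control library 4, at 5.874 CPM, lay just below library 2 labelled knockout, the lowest of its group at 5.923 CPM. For comparison, 1 count was worth 0.0699 CPM in the former and 0.0543 CPM in the latter. The log2 fold change of Ankle1, 1.46 (SE 0.47, adjusted p = 0.75 with edgeR), was the highest of the 44. Lig4, the ligase of classical end joining, was at 8.25, 10.8, 11.5 and 7.14 CPM in libraries labelled knockout, against 10.8, 13.5, 10.9 and 7.34 CPM in control libraries, a log2 fold change of -0.17 (SE 0.24). Xrcc6 averaged 17.6 ± 1.95 CPM in libraries labelled knockout and 18.03 ± 6.04 CPM in control libraries, and Xrcc5 averaged 4.90 ± 1.21 CPM in libraries labelled knockout and 5.08 ± 1.99 CPM in control libraries.

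Of the damage kinases and mediators, 6 of 7 lay above 0 on the log2 fold scale (median 0.24). Topbp1, the activator of the kinase ATR, was at 91.3, 102.5, 95.1 and 69.0 CPM in libraries labelled knockout, against 70.1, 75.3, 63.8 and 61.8 CPM in control libraries. It was higher in all 4 pairs, by 0.16 to 0.58 on the log2 scale, and the log2 fold change was 0.40 (SE 0.14, adjusted p = 0.82 with edgeR). Chek2, the kinase downstream of ATM, was at 27.4, 27.2, 26.1 and 21.5 CPM in libraries labelled knockout, against 16.03, 16.9, 16.3 and 27.8 CPM in control libraries. In Chek2 the order of the groups reversed in pair 4, and its log2 fold change was 0.41 (SE 0.21) in all libraries and 0.72 without libraries 4 (adjusted p = 0.000758, edgeR). Trp53bp1, which steers breaks toward end joining, was at 54.2, 57.1, 55.3 and 43.2 CPM in libraries labelled knockout, against 43.5, 45.4, 47.4 and 41.5 CPM in control libraries. Its log2 fold change was 0.24 (SE 0.12), and 15% of its exonic length is shared with the opposite-strand gene Tubgcp4.

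Among the kinases, Atr was the only one with a negative log2 fold change. Atr, which responds to stalled forks, was lower in all 4 pairs and averaged 28.3 ± 7.10 CPM in libraries labelled knockout and 32.2 ± 8.92 CPM in control libraries, a log2 fold change of -0.18 (SE 0.27). Atm, which responds to broken ends, averaged 43.1 ± 11.7 CPM in libraries labelled knockout and 39.4 ± 12.5 CPM in control libraries. Chek1, the effector of ATR, averaged 4.50 ± 1.36 CPM in libraries labelled knockout and 2.86 ± 1.11 CPM in control libraries, with a log2 fold change of 0.65 (SE 0.37), and Mdc1, an adaptor at marked chromatin, had 0.15 (SE 0.20). None of these 4 passed the threshold with all 8 libraries.

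The 44 genes were also divided by textbook knowledge of the cell cycle. The 16 genes known as cell-cycle regulated transcripts were Fancd2, Fanca, Fanci, Brca1, Brca2, Bard1, Brip1, Rad51ap1, Rad54l, Blm, Exo1, Msh6, Chek1, Ung, Polq and Topbp1. All 16 lay above 0 on the log2 fold scale (median 0.74), 10 of them at an unadjusted p under 0.05. Of the other 28, 22 were positive, with a median of 0.17 and 3 at an unadjusted p under 0.05, all 3 of them higher. Of all genes tested, 3.19% were higher and 1.72% lower at that p. Summed levels of the 16 were 254, 291, 268 and 205 CPM in libraries labelled knockout, against 154, 192, 158 and 184 CPM in control libraries, without overlap. Summed levels of the other 28 were 755, 789, 766 and 624 CPM in libraries labelled knockout, against 668, 681, 647 and 626 CPM in control libraries, where library 4 labelled knockout was the lowest of all 8.

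Median log2 differences of the 16 were 1.14, 0.73, 1.12 and 0.21 in pairs 1 to 4, and those of the other 28 were 0.23, 0.18, 0.24 and 0.02. Over all 44 genes, the medians were 0.38, 0.34, 0.36 and 0.11, with 39, 35, 39 and 28 genes higher in the library labelled knockout. Over all genes tested the medians lay between -0.01 and 0.01.

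**Figure D4:**
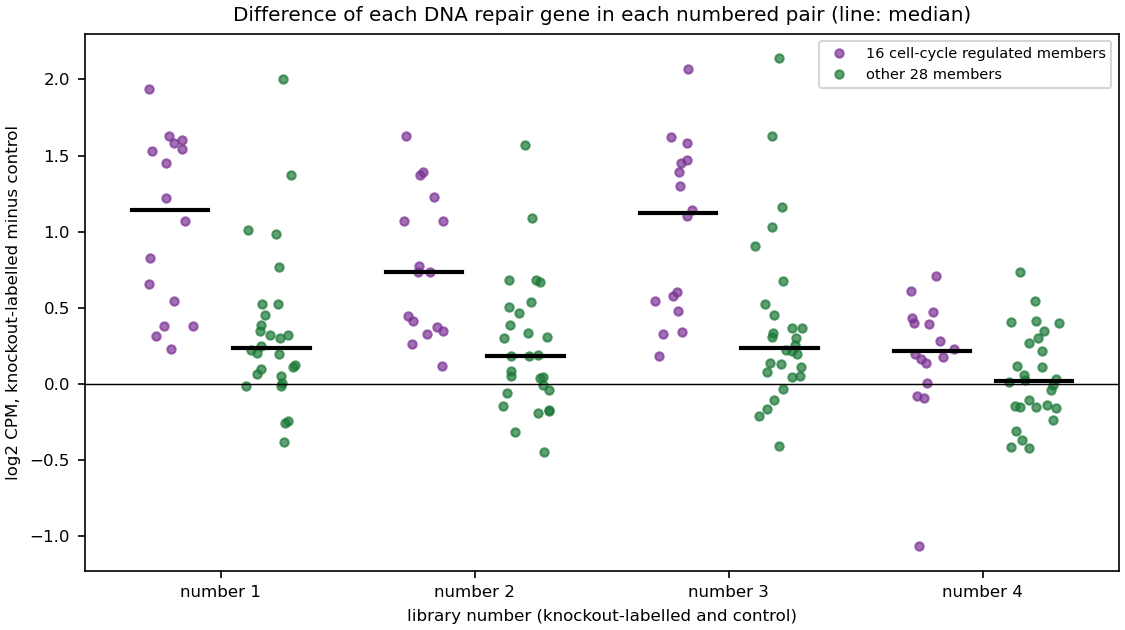
Difference in log2 CPM between the library labelled knockout and the control library of the same number (vertical axis) for each repair gene in each numbered pair (horizontal axis), with the 16 cell-cycle regulated genes in purple, the other 28 in green and lines at the medians. The purple medians are 1.14, 0.73, 1.12 and 0.21 in pairs 1 to 4, and the lowest purple point in pair 4 is Ung at -1.07.

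Levels of genes of cell division are given beside these. All 20 mitosis genes lay above 0 on the log2 fold scale (median 1.14). For 17 of the 20 all libraries labelled knockout lay above all control libraries, against 2.32% of all genes above and 1.27% below. The 20 mitosis genes summed to 1477, 1654, 1549 and 1003 CPM in libraries labelled knockout, against 381, 739, 509 and 749 CPM in control libraries. In the 8 libraries the summed mitosis genes and the 16 summed repair genes had the same order, except that control libraries 2 and 4 changed places. Mki67, the usual marker of dividing cells, was at 451, 477, 451 and 189 CPM in libraries labelled knockout, against 99.6, 162, 119 and 129 CPM in control libraries, a log2 fold change of 1.62 (SE 0.31, adjusted p = 0.47 with edgeR). The 30 replication genes were likewise all positive, with a median of 0.49, and summed to 912, 1070, 980 and 911 CPM in libraries labelled knockout, against 564, 733, 649 and 850 CPM in control libraries. With the replicate block Aurkb, Prc1 and Kif23 of the mitosis genes and Pole, Prim1 and Pcna of the replication genes rose by 0.53 to 1.26 on the log2 scale (edgeR, adjusted p from 0.0361 to 0.046). These calls are 3 of 20 and 3 of 30 genes, against 1.31% of all genes called higher and 1.18% lower. The part of dividing cells in the repair gene levels was not tested.

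**Figure D5:**
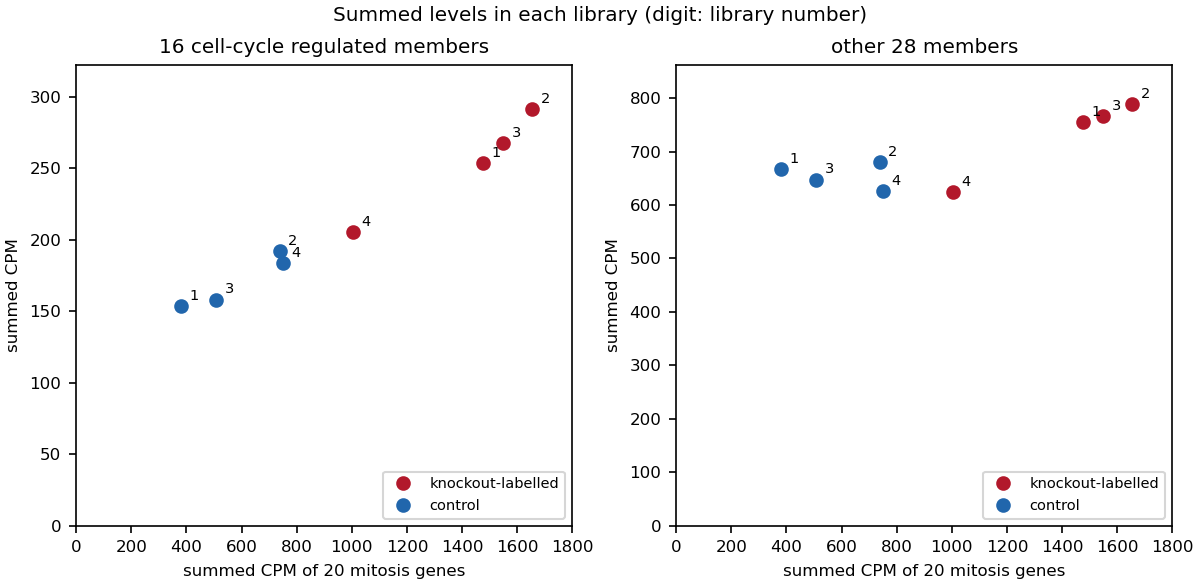
Summed CPM of the 16 cell-cycle regulated repair genes (left) and the other 28 (right) against the summed CPM of 20 mitosis genes in each library, libraries labelled knockout in red and control libraries in blue, with the library number beside each point. On the left the libraries labelled knockout (205 to 291 CPM) lie above the control libraries (154 to 192 CPM), and on the right library 4 labelled knockout (624 CPM) lies below all control libraries.

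The rest of the repair pathways was read from other lists. Over 8 further lists of repair genes, 109 of 117 genes were tested, 64 of 109 lay above 0 on the log2 fold scale and the overall median was 0.03. Of the 109, 0 were called with all 8 libraries in edgeR. At an unadjusted p under 0.05, 13 of the 109 were higher and 2 lower, against 3.19% of all genes higher and 1.72% lower. Against 1.31% of all genes called higher and 1.18% lower, 3 of the 109 rose with the replicate block. These were Clspn, the adaptor through which ATR activates CHEK1 (log2 fold change 1.13, adjusted p = 0.0384), Fen1, the flap nuclease of lagging-strand synthesis (0.67, adjusted p = 0.0463), and Usp1, the enzyme that removes ubiquitin from FANCD2 (0.42, adjusted p = 0.0474). Of the exonic length of Fen1, 84.2% is shared with Gm10143 and Tmem258 on the opposite strand, so its reads cannot be told apart from theirs. The median was 0.03 in 13 other Fanconi genes, 0.06 in 24 other recombination genes, -0.13 in 5 other mismatch genes, 0.05 in 19 other base excision genes, 0.15 in 7 other end joining genes, 0.04 in 19 nucleotide excision genes, 0.02 in 9 translesion genes and 0.06 in 13 checkpoint genes. Without libraries 4, 18 of the 109 were called higher and 2 lower (edgeR, no block), among them 7 of the 24 recombination genes. In the same fit 7.78% of all genes were called higher and 6.29% lower.

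From each list the gene with the smallest unadjusted p is given. Neil3, a glycosylase that unhooks crosslinks, was at 16.6, 18.04, 18.8 and 9.69 CPM in libraries labelled knockout, against 1.48, 3.32, 3.67 and 5.94 CPM in control libraries. It did not overlap between groups and had a log2 fold change of 2.13 (SE 0.42, adjusted p = 0.47 with edgeR). Gen1, a resolvase of crossed strands, was at 14.02, 12.9, 12.2 and 7.36 CPM in libraries labelled knockout, against 5.50, 7.03, 6.46 and 5.59 CPM in control libraries, also without overlap. Fancb, a core complex subunit, was at 4.40, 4.24, 4.72 and 3.496 CPM in libraries labelled knockout, against 2.43, 3.20, 1.86 and 1.82 CPM in control libraries, without overlap. The others were Polh, with a log2 fold change of 0.39, Gtf2h1 with 0.23, Poll with 0.33 and Msh5 with -1.66, and none passed the threshold in the fit of all 8 libraries. Msh5 was at 10.2 CPM in control library 4, against 1.48, 2.64 and 1.86 CPM in control libraries 1 to 3. Without libraries 4 the log2 fold change of Msh5 was -0.67 (adjusted p = 0.30 with edgeR, no block). Of the 20 tested targets of p53, the transcription factor that damage activates, 12 were positive with a median of 0.06. Sesn1 was the only p53 target called with the replicate block (log2 fold change 0.49, adjusted p = 0.0412, edgeR). In that fit 1.31% of all genes were called higher and 1.18% lower. Without libraries 4 and without the block, 7 of the 20 were called higher and 2 lower, against 7.78% and 6.29% of all genes. With the block but still without libraries 4, 10 were called higher and 2 lower, against 12.3% and 11.9% of all genes.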

How the data were processed

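Per the labels' protocols, the RNA kit was one made for plants and libraries were made with a dual-mode mRNA kit. The authors deposited raw counts of reads per gene symbol. Alignment and counting tools named in the submitters' processing notes are STAR 2.7.11b and featureCounts 2, with build GRCm38 (mm10); the annotation, the strand setting and the treatment of reads with several alignments are not given in the sources used here. Exons of 18 of the 44 repair genes overlap a gene on the opposite strand in GENCODE M21, over at least 10% of their length in 6 of them (Fanca, Fancl, Fanci, Rad54l, Lig3 and Trp53bp1).

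Groups and numbers came from the sample titles. The fit was edgeR 4.0.16 in R 4.3.3 (filterByExpr, which kept genes above about 0.574 CPM in at least 4 libraries, TMM scaling, robust quasi-likelihood F test, genotype as the only term, Benjamini-Hochberg adjustment over 12837 genes, threshold 0.05). All 44 genes passed the filter, 43 of them in all 4 libraries of each group, so none passed through 1 group alone. CPM was computed here from the deposited counts with TMM scaling, with a prior count of 2 for log2 CPM. Exact two-sided permutation tests of log2 CPM ignore the library number and cannot go below p = 0.0286 here, and their p-values are not adjusted. Libraries of 1 group differed by a chi-square of 8.56 to 307 per degree of freedom, so each was counted. Deviations of libraries with the same number correlated at 0.46 to 0.829 between the groups, and those with different numbers at -0.757 to 0.572. Among numbers 1 to 3 the ranges were 0.145 to 0.369 and -0.263 to -0.0121. The best match was the own number in 6 of 8 libraries, and in 6 of 6 among numbers 1 to 3. The numbers were taken to pair libraries on this ground, which comes from the data, since no label says what a number marks. The fits were tested on simulated counts of 12837 genes, of which 200 were altered by 1 or 2 on the log2 scale. The fit of genotype alone called 10% of the genes altered by 1 and 59% of those altered by 2. With the replicate block these shares were 77% and 92%. Each fit was run on its own simulated counts, drawn with the means and spread of that fit. The shares therefore do not compare the fits with each other. Unaltered genes made up 2.82% of the calls of genotype alone and 10.6% of the calls with the block, at the threshold of 0.05. DESeq2 1.42.0, limma-voom (limma 3.58.1), other size factors, no count filter and left-out libraries were alternatives.

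The members and all gene lists were chosen with earlier results of these data known. Values per library are given for up to 3 members of each role with the smallest unadjusted p and for those called with the block, and 1 gene of each other list is given by the same order. Rad54l was added after its values were seen. Promoters came from RefSeq (GRCm38.p6), where 37 of 44 genes matched.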

Additional observations from a re-analysis of the deposited data

Results flagged for a closer look

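In groups of 4 libraries, 1 library stood far from the other 3 in 26 of 128 groups examined (64 genes in both groups), of which 15 concern the 44 repair genes, and 22 of the 26 are a library numbered 4. Chance alone flags about 1 in 20 groups. All values are CPM, and the distance was judged with Dixon's test.

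In library 4 labelled knockout the repair genes that stood apart were Fancg at 28.3, Rbbp8 at 20.5, Mre11a at 26.2, Rad50 at 38.7, Atm at 25.7 and Chek1 at 2.48. In control library 4 they were Rad50 at 35.9, Rad51b at 1.96, Rad54l at 11.5, Xrcc1 at 49.0, Ankle1 at 5.87 and Chek2 at 27.8. Rad50 stood apart in library 4 of both groups, at a lower level in each. Away from libraries 4, Exo1 stood apart in library 2 labelled knockout at 5.76, and Bard1 at 4.55 and Xrcc5 at 8.04 in control library 2.

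Of the other genes named, library 4 labelled knockout stood apart for Sphk2 at 131, Mki67 at 189, Sesn1 at 157, Nusap1 at 26.6, Usp1 at 35.0 and Aurkb at 37.1. Control library 4 stood apart for Pcna at 105, Msh5 at 10.2, Poll at 15.2 and Fen1 at 32.8. Gtf2h1 stood apart in library 1 labelled knockout at 55.3.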

How the results depend on the processing

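The median log2 fold change of the 44 genes was 0.213 to 0.361 under all alternatives run, against 0.261 in the fit reported. Size factors of the other kind and no count filter moved no call of a repair gene. Calls between the groups moved as follows, and the cause was not tested. DESeq2 called 4 repair genes higher, 115 of all genes higher and 45 lower, and 17 genes of the other lists higher and 1 lower. The replicate block gave 3 repair genes higher, 168 of all genes higher and 151 lower, and 10 genes of the other lists higher. Numbers 1 to 3 without the block gave 19, 1005, 812, 61 and 4 (repair genes higher, all genes higher, all genes lower, other lists higher, other lists lower), and with the block 23, 1593, 1539, 77 and 4. Leaving out 1 library gave 0 to 3 repair genes, 0 to 25 of all genes higher, 0 to 13 lower and 0 to 5 of the other lists.

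Signs turned only in genes near 0. Xrcc6 was at 0.03 in limma-voom and 0.014 with the replicate block. In numbers 1 to 3, Fancl, Xrcc5 and Xrcc6 were at 0.07, 0.037 and 0.17 without the block and 0.05, 0.09 and 0.16 with it. Leaving out 1 library, Sphk2 ranged from -0.32 to 0.21, Fancl from -0.16 to 0.21, Nbn from -0.10 to 0.16, Rad50 from -0.07 to 0.21, Lig3 from -0.036 to 0.23, Xrcc5 from -0.16 to 0.27, Xrcc6 from -0.14 to 0.22, Atm from -0.07 to 0.31, Mdc1 from -0.00095 to 0.25 and Pms2 from -0.0061 to 0.20. With the replicate block and 1 number left out, a setting chosen after seeing the data, Pms2 was at -0.023, Fancl at 0.06, Nbn at -0.08, Xrcc5 at 0.15, Xrcc6 at 0.047 and Sphk2 at 0.0052, and 0 repair genes were called. Low counts limit Rad51b and Rad51c most.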
